A study of Mus musculus with 2 samples.

Results

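The clustered protocadherin genes lie in tandem on mouse chromosome 18 in 3 arrays, named Pcdha, Pcdhb and Pcdhg, and are described here in DNase-seq of newborn thymus. All protein-coding genes of the annotation on chromosome 18 whose symbol starts with Pcdha, Pcdhb or Pcdhg were taken, which gave 57 of 21853 coding genes: 14 Pcdha, 22 Pcdhb and 21 Pcdhg genes. The thymus came from newborn mice (age 0 days) of strain B6NCrl, male and female pooled and healthy, with no treatment named, and there was 1 group with 2 biological replicates. Both replicates carry the same donor label and different biosample labels, so a spread over n = 2 may be partly technical. DNase-seq cuts accessible DNA in nuclei, and a peak is a stretch of 150 bp where the authors found cutting to be concentrated. With 1 group there was no contrast between conditions, so values of each replicate and counts are given without a test.

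Clustered protocadherins are cell adhesion proteins of the neuronal surface. Each Pcdha or Pcdhg gene is a variable exon with a promoter of its own, spliced to constant exons shared by its array, whereas each Pcdhb gene is a single exon. A neuron uses a small choice of these promoters, and the resulting combination of proteins lets a neurite recognise branches of its own cell. The choice is known to involve DNA methylation of promoters and loops held by the zinc finger protein CTCF and cohesin between promoters and enhancers that lie downstream of the variable exons. The last genes of Pcdha and Pcdhg, the C types (Pcdhac and Pcdhgc), are used more broadly in neurons than the others. Most cells of the thymus are developing T cells.

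A promoter peak is here a peak whose centre lies within 1000 bp of the start of the variable exon, and it is shared where a peak in the other replicate covers 1 bp or more of it. The 3 arrays differed in how many of their genes had one. In Pcdhg, 19 of 21 genes (90.5%) had a shared promoter peak, against 58.5% of all 21853 coding genes. In Pcdha there were 2 of 14 (14.3%) and in Pcdhb 3 of 22 (13.6%), so that 24 of the 57 genes (42.1%) had one in all. Counted in each replicate's own list, the share was 92.9% ± 3.37 of Pcdhg genes, 28.6% ± 20.2 of Pcdha genes and 31.8% ± 19.3 of Pcdhb genes, against 61.2% ± 0.398 of all coding genes (SD, n = 2 replicates). Replicate 1 listed peaks at 6 Pcdha and 10 Pcdhb genes (61.5% of all coding genes), and replicate 2 at 2 and 4 (60.9% of all coding genes). Over all 57 genes the share was 63.2% in replicate 1 (36 genes), near that of all coding genes. In replicate 2 it was 43.9% (25 genes), below that of all coding genes. A peak in at least 1 replicate was found at 37 of the 57 genes, against 63.4% of all coding genes. In both replicates the share of Pcdhg genes was above, and those of Pcdha and Pcdhb below, the share of all coding genes. In bulk tissue, a promoter open in fewer cells and one open more weakly in every cell cannot be told apart.

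**Figure D1:**
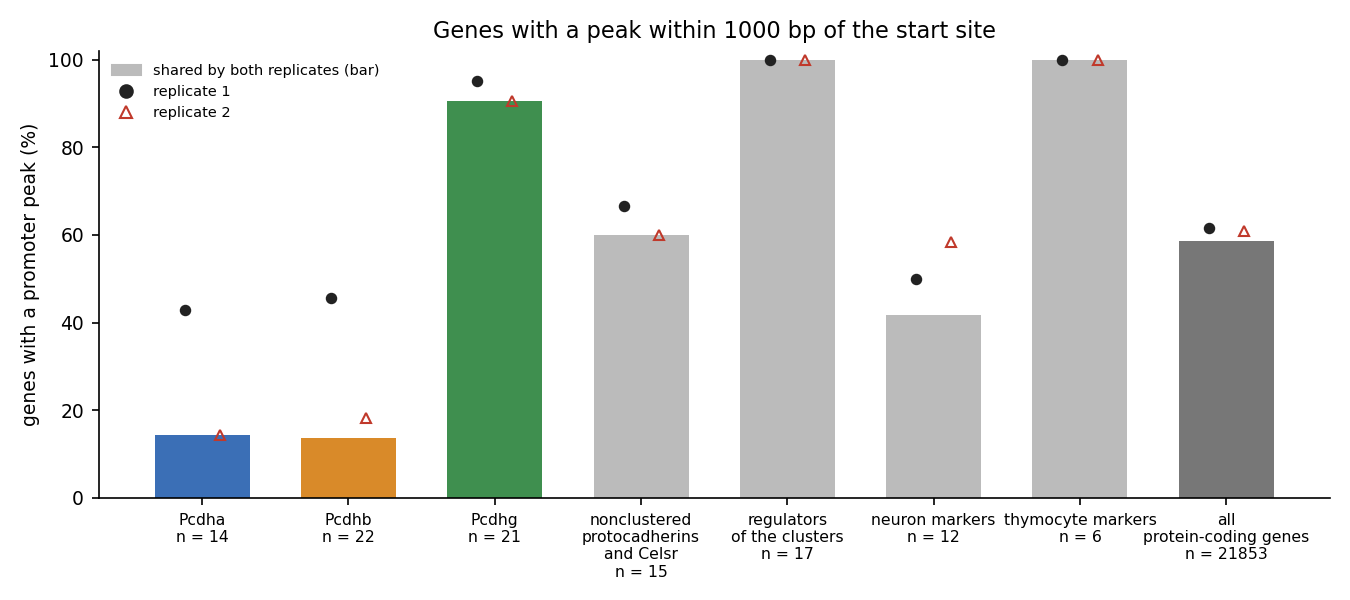
Share of genes (%) with a peak within 1000 bp of the start site, for the 3 protocadherin arrays, related genes, marker lists and, at the right, all protein-coding genes. Bars show genes with a peak shared by both replicates, circles and triangles each replicate's own list; the Pcdhg bar stands at 90.5% and those of Pcdha and Pcdhb at 14.3% and 13.6%, against 58.5% for all coding genes.

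The peaks at Pcdhg genes were also stronger than those of the other arrays. The authors' score of a peak ranges from 1 to 150, but no source used here says what it counts. The strongest peak at each Pcdhg gene had a median score of 55 in replicate 1 (20 genes, range 27 to 111) and 56 in replicate 2 (19 genes, 17 to 116). The corresponding medians were 24.5 (6 genes, 19 to 26) and 17.5 (2 genes, 16 and 19) in Pcdha, and 26 (10 genes, 18 to 41) and 18.5 (4 genes, 9 to 24) in Pcdhb. In replicate 1, the highest Pcdha score, 26, lay below the lowest Pcdhg score, 27. Pcdhg genes were weak beside open coding genes in general, whose median was 113 in replicate 1 and 119 in replicate 2. When only the stronger 50% of each replicate's peaks were kept, 10 Pcdhg genes, no Pcdha gene and no Pcdhb gene kept a shared peak, against 53.3% of all coding genes.

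The 2 Pcdha genes with a shared promoter peak were Pcdha6 and Pcdha9. Pcdha9 had a score of 26 in replicate 1 and 16 in replicate 2, with peak centres 110 bp and 90 bp upstream of the start. At Pcdha6, replicate 1 listed a peak 21 bp upstream (score 26) that replicate 2 lacked. The peak shared at Pcdha6 lay inside the exon, 579 bp past the start in replicate 1 (score 22) and 599 bp past it in replicate 2 (score 19). With the distance narrowed to 500 bp, Pcdha9 alone of the Pcdha genes kept a shared peak, against 55.8% of all coding genes. In replicate 1 alone, peaks were also listed at Pcdha1 (20), Pcdha3 (26), Pcdha4 (23) and the C-type gene Pcdhac2 (19). The other 8 Pcdha genes had none in either replicate, among them the C-type gene Pcdhac1. One further peak of replicate 1 (score 15) lay 1121 bp inside Pcdha12, just past the distance used, and the weaker of the 2 peaks at Pcdhac2 (score 16) was counted at 747 bp.

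In Pcdhb the genes with a shared promoter peak were Pcdhb1, Pcdhb3 and Pcdhb17. Pcdhb3 had the highest score of the array in both replicates, 41 in replicate 1 and 24 in replicate 2, with both peaks centred 9 bp upstream of the start. Pcdhb1, the first gene of the array, scored 27 in replicate 1 and 22 in replicate 2, and Pcdhb17 scored 28 in replicate 1 and 15 in replicate 2. Replicate 1 alone listed peaks at Pcdhb4 (20), Pcdhb7 (24), Pcdhb8 (26), Pcdhb10 (30), Pcdhb13 (26), Pcdhb14 (18) and Pcdhb22 (20). Replicate 2 alone listed 1, at Pcdhb5 (9). The 7 genes with a peak in replicate 1 alone scored 18 to 30, which overlapped the 27 to 41 of the genes with a shared peak. In that replicate Pcdhb10 stood above Pcdhb1 and Pcdhb17. A further 11 Pcdhb genes had no peak in either replicate.

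In Pcdhg the scores rose along the array, from the variable exons farthest from the constant exons towards those nearest to them. The first 2 genes, Pcdhga1 and Pcdhga2, scored 39 and 35 in replicate 1 and 22 in both cases in replicate 2. Pcdhga3 scored 54 in replicate 1 and 28 in replicate 2, Pcdhga4 33 and 24, and Pcdhga5 49 and 31. Scores at Pcdhga6 were 37 and 18, at Pcdhga7 56 and 35, and at Pcdhga8 52 and 23, again with replicate 1 first. Every A-type gene from Pcdhga1 to Pcdhga8 therefore had the lower score in replicate 2. Further along, Pcdhga10 scored 69 in replicate 1 and 62 in replicate 2, Pcdhga11 56 and 64, and Pcdhga12 75 and 80. Spearman's rho between a gene's place in the array and its score was 0.71 in replicate 1 (20 genes) and 0.81 in replicate 2 (19 genes). It is a description of points from the same 2 libraries, and the genes are related members of one array. In Pcdha (6 genes) and Pcdhb (10 genes) the same rho in replicate 1 was -0.09 and -0.33.

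The strongest promoter peak of all 57 genes in both replicates was that of Pcdhgc3, the first of the 3 C-type genes at the end of Pcdhg. It scored 111 in replicate 1 and 116 in replicate 2, with 3 shared peaks within 1000 bp. Pcdhgc4 scored 91 in replicate 1 and 98 in replicate 2, also with 3 shared peaks, and Pcdhgc5 scored 53 in replicate 1 and 60 in replicate 2. In replicate 1 Pcdhgb4 (95) stood above Pcdhgc4, and in replicate 2 Pcdhgc4 came next after Pcdhgc3. Pcdhgc5 was below Pcdhga12, the last A-type gene, and below Pcdhgb6 and Pcdhgb7 in both. Neither C-type gene of Pcdha had a shared peak, as was the case for 12 of the 14 Pcdha genes.

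**Figure D2:**
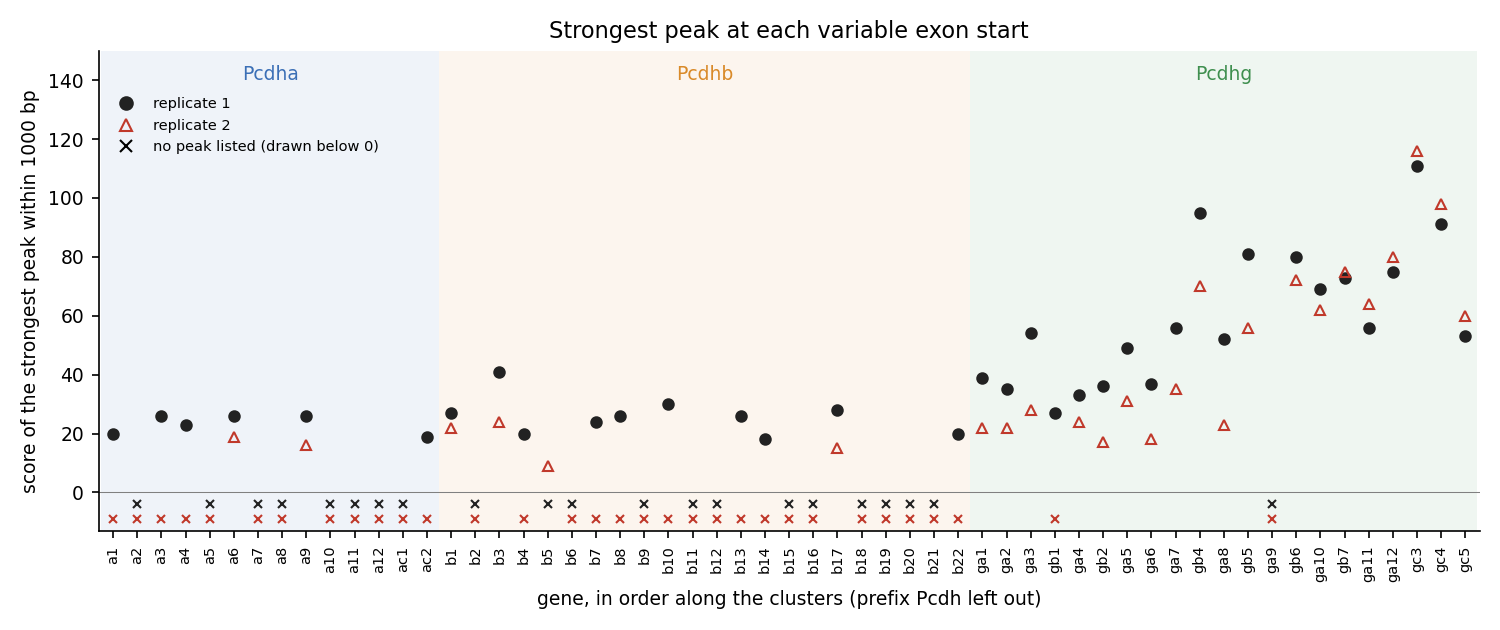
Score of the strongest peak within 1000 bp of each variable exon start, for the 57 genes in their order along the chromosome (filled circles replicate 1, open triangles replicate 2, crosses below 0 for no peak listed). Pcdha and Pcdhb scores stay at or below 41, while Pcdhg scores climb towards the constant exons and reach 111 and 116 at Pcdhgc3.

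A-type and B-type genes alternate along much of Pcdhg, and the B types (Pcdhgb) in the later stretch stood above the A types next to them. Pcdhgb4 scored 95 in replicate 1 and 70 in replicate 2, against 56 and 35 at Pcdhga7 before it and 52 and 23 at Pcdhga8 after it. Pcdhgb5 scored 81 in replicate 1 and 56 in replicate 2, and Pcdhgb6, on the other side of Pcdhga9, scored 80 and 72. Pcdhga9 had no peak in either replicate and was the one Pcdhg gene without any. Pcdhgb7 scored 73 in replicate 1 and 75 in replicate 2, against 69 and 62 at Pcdhga10 and 56 and 64 at Pcdhga11. These 4 B-type genes exceeded both neighbours in both replicates. The first 2 B-type genes did not in either: Pcdhgb2 scored 36 in replicate 1 and 17 in replicate 2, and Pcdhgb1 had a peak in replicate 1 alone (27). By type, 11 of 12 A genes, 5 of 6 B genes and 3 of 3 C genes had a shared peak. Median scores in replicate 1 were 52 for A, 76.5 for B and 91 for C, and in replicate 2 they were 28, 70 and 98. Pcdhgb8, which the annotation calls a polymorphic pseudogene and which is not among the 57 genes, had a strongest peak of 81 in each replicate.

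Where both replicates listed a peak, they ranked the genes alike but differed in level over a part of the locus. Over the 24 genes with a peak in both, Spearman's rho between the replicates' scores was 0.908. This rho spans arrays of unlike level. It leaves out 13 genes with a peak in 1 replicate only, 12 of them in replicate 1. From Pcdhga1 to Pcdhga8, all 10 Pcdhg genes with a peak in both had the lower score in replicate 2, with a median difference (replicate 2 minus replicate 1) of -19 and a range of -29 to -9. From Pcdhgb5 to Pcdhgc5, 3 of 9 were lower and 6 higher in replicate 2, with a median difference of 5 and a range of -25 to 8. The 3 lower genes were the first of this stretch, Pcdhgb5, Pcdhgb6 and Pcdhga10. Replicate 2 was thus lower at every Pcdhg gene with a peak in both up to Pcdhga10, past the division used here. The 5 Pcdha and Pcdhb genes with a peak in both were all lower in replicate 2, by a median difference of -10. The median over all peaks of a list was 41 in replicate 2 and 46 in replicate 1. Read depth is unknown, and its part in these differences was not tested.

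Hotspots, the authors' second and wider call of enriched cutting, came from the same libraries and are not separate evidence. At the 57 genes they gave the same calls as the peaks in each replicate. Both replicates had a hotspot within 1000 bp of the start at 19 Pcdhg, 2 Pcdha and 3 Pcdhb genes, against 59.6% of all coding genes. The hotspot's deposited −log10 q-value was at its upper limit of 100 at 15 of 20 Pcdhg genes in replicate 1 and 10 of 19 in replicate 2. In Pcdha it reached the limit at 0 genes in either replicate, and in Pcdhb at 1 gene in replicate 1 and 0 in replicate 2.

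Peaks at Pcdhg genes took up a narrow position in front of the exon. Of the 19 genes with a shared peak, 16 (84.2%) had it centred within 200 bp upstream of the start, against 56.3% of the 12789 coding genes with one. The median distance in replicate 1 was -43 bp, against -40 bp for all coding genes, negative values being upstream. Pcdhga12 and Pcdhgc4 departed from this, with peaks centred 310 bp and 271 bp past the annotated start in replicate 1. Measured from the first base of the coding sequence, these genes fell among the others: in replicate 1 all 20 Pcdhg genes had their strongest peak centred at -255 bp to -170 bp from the coding start. In replicate 2 the 19 genes ranged from -259 bp to -111 bp. Over the Pcdhb genes the median distance from the coding start was -211 bp in replicate 1 (10 genes, -253 bp to 192 bp).

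Several Pcdha peaks lay inside the variable exon, where Pcdha sequence carries matches to the CTCF consensus. Most protocadherin promoters are known to carry a conserved element bound by CTCF, and Pcdha variable exons a second CTCF site. The CTCF consensus, searched on both strands over its 12 core positions, occurred within 1000 bp of the start at 6 of the 57 genes, against 1.67% of all coding genes. All 6 were Pcdha genes (Pcdha1, Pcdha4, Pcdha6, Pcdha7, Pcdha8 and Pcdha12), and each match read in the direction of the gene and lay 465 bp to 587 bp past the start. There were 0 matches in Pcdhb and Pcdhg and none upstream of a start. The main consensus thus did not pick up the known promoter element, and genes without a match cannot be called free of CTCF sites. Replicate 1 had a peak over the match at 3 of these 6 genes (Pcdha1, Pcdha4 and Pcdha6), and replicate 2 at Pcdha6 alone. Pcdha3, with no match to the main consensus, had a peak in replicate 1 at the similar distance of 585 bp (score 24). With a looser form of the consensus, 26 of the 57 genes had a match, 14 Pcdha, 2 Pcdhb and 10 Pcdhg genes, against 37.3% of all coding genes. With the window narrowed to 500 bp the main consensus was found at 1 gene (1.75%), against 1.02% of all coding genes. A match describes the letters of the sequence and was not tested for binding.

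**Figure D3:**
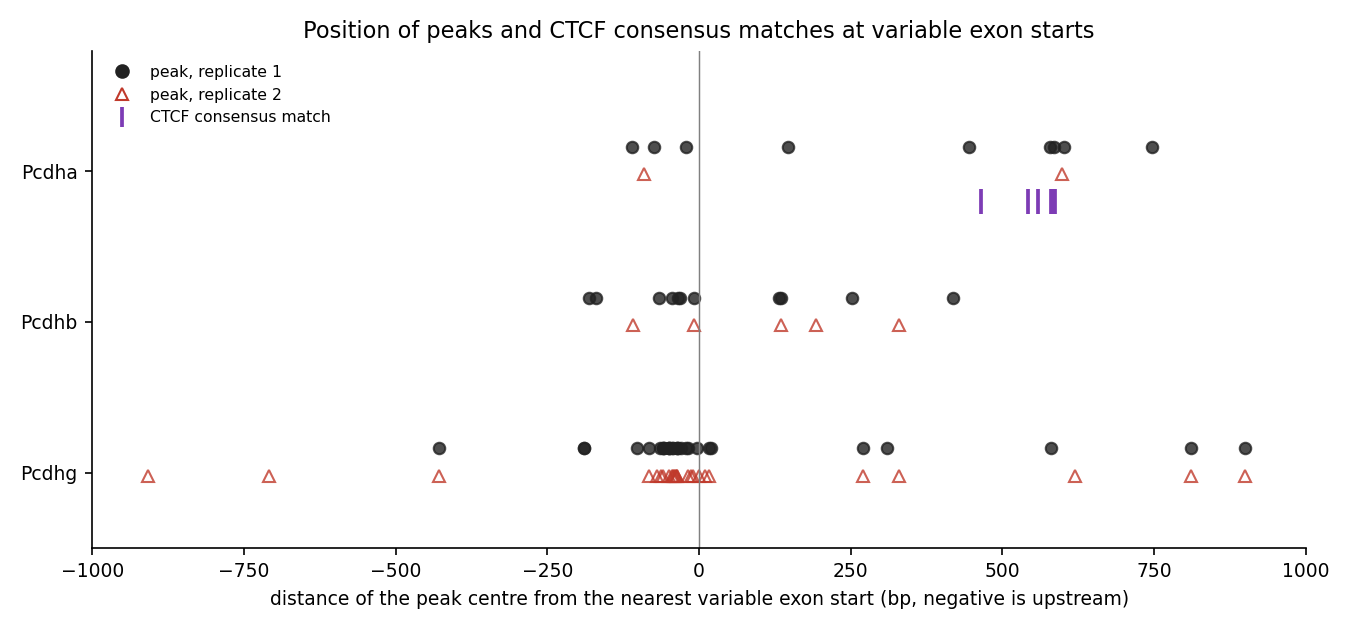
Position of peak centres relative to the nearest variable exon start (bp, negative upstream), one band for each array (filled circles replicate 1, open triangles replicate 2), with CTCF consensus matches as vertical ticks. Pcdhg peaks gather just upstream of the start, and the Pcdha ticks, at 465 bp to 587 bp, lie among exonic Pcdha peaks.

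Pcdha and Pcdhg genes covered similar CpG counts. CpG dinucleotides were counted within 500 bp of the start, since CpG-rich promoters are open in most tissues. The 57 genes had a median of 30 CpGs (range 6 to 67), against 43 for all coding genes. Pcdha (median 36, range 31 to 55) and Pcdhg (33, 12 to 67) lay close together, and Pcdhb was lower (15, 6 to 32). Within the second quartile of CpG count over coding genes (13 to 43 CpGs), 16 of 18 Pcdhg genes, 2 of 12 Pcdha genes and 3 of 16 Pcdhb genes had a shared promoter peak, against 47.3% of coding genes. The most CpG-rich Pcdha gene, Pcdhac2 (55), had no shared peak, nor did the poorest, Pcdha12, while Pcdha9, tied with it at 31, had one. In Pcdhb the richest gene, Pcdhb1 (32), had a shared peak, and the poorest, Pcdhb9 and Pcdhb22 (6 each), did not. In Pcdhg both ends were open, Pcdhgc3 (67) and Pcdhga12 (12), though the peak of Pcdhga12 lies 310 bp from the annotated start on which its count is centred. In the lowest quartile (0 to 12 CpGs) 7.78% of coding genes had a shared peak, against 1 of 1 Pcdhg gene and 0 of 6 Pcdhb genes. In the third quartile (44 to 71 CpGs) 87.7% of coding genes had a shared peak, against 2 of 2 Pcdhg genes and 0 of 2 Pcdha genes. Over the 20 Pcdhg genes with a peak in replicate 1, Spearman's rho between CpG count and score was 0.64, as a description.

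**Figure D4:**
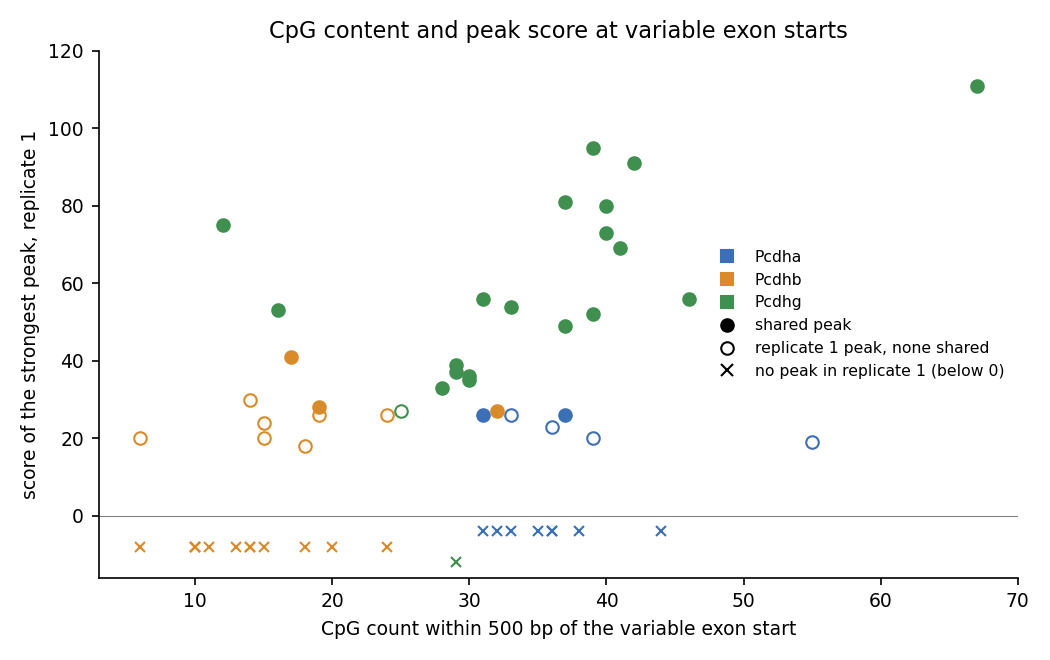
CpG count within 500 bp of the variable exon start against the score of the strongest peak in replicate 1, coloured by array (filled for a shared peak, open for a peak of replicate 1 with none shared, crosses below 0 for no peak in replicate 1). Pcdha and Pcdhg genes cover similar CpG counts, yet Pcdha scores stay at or below 26.

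Reads from near-identical copies cannot always be placed at one of them. The share of 31-base words within 1000 bp of each start that recur elsewhere in the reference sequence had a median of 11.3% in Pcdha (range 0% to 26.8%), 0.482% in Pcdhb (0% to 22.0%) and 2.54% in Pcdhg (0% to 19.2%). Within the arrays its median was 15.3% at Pcdha genes with a shared peak and 11.3% at those without. It was 0% and 6.60% in Pcdhb, and 2.54% and 4.03% in Pcdhg, so the order was not the same in all arrays. How the authors treated reads that map to several places is not given in the sources that were used, and the part of this in the low counts of Pcdha and Pcdhb was not tested.

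Across the locus, shared peaks were denser in Pcdhg, and less dense in Pcdha and Pcdhb, than on chromosome 18 as a whole. The Pcdhg cluster, from its first variable exon to its last constant exon, held 35 shared peaks, or 19.4 per 100 kb, against 3.23 on chromosome 18 as a whole. The Pcdha cluster held 2 (0.777 per 100 kb) and the Pcdhb cluster 4 (1.54 per 100 kb). The flanks also lay above the chromosome's value. They held 5 per 100 kb in the 200 kb before Pcdha and 12 per 100 kb in the 200 kb after Pcdhg. In their own lists the replicates gave 22.8 ± 1.57 peaks per 100 kb in Pcdhg, 2.72 ± 1.65 in Pcdha and 3.85 ± 1.63 in Pcdhb (SD, n = 2 replicates), against 4.90 in replicate 1 and 4.30 in replicate 2 on chromosome 18. In replicate 1 alone Pcdhb had 5.01, close to the chromosome's own value, and in replicate 2 it had 2.70. Of replicate 1's peaks, 81.4% in Pcdhg overlapped a peak of replicate 2, with 20% in Pcdha and 30.8% in Pcdhb, against 67.3% over the whole list. The gap between Pcdhb and Pcdhg held 2 shared peaks, one of which is that of Pcdhga1, whose centre lies just before the first base of the array.

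**Figure D5:**
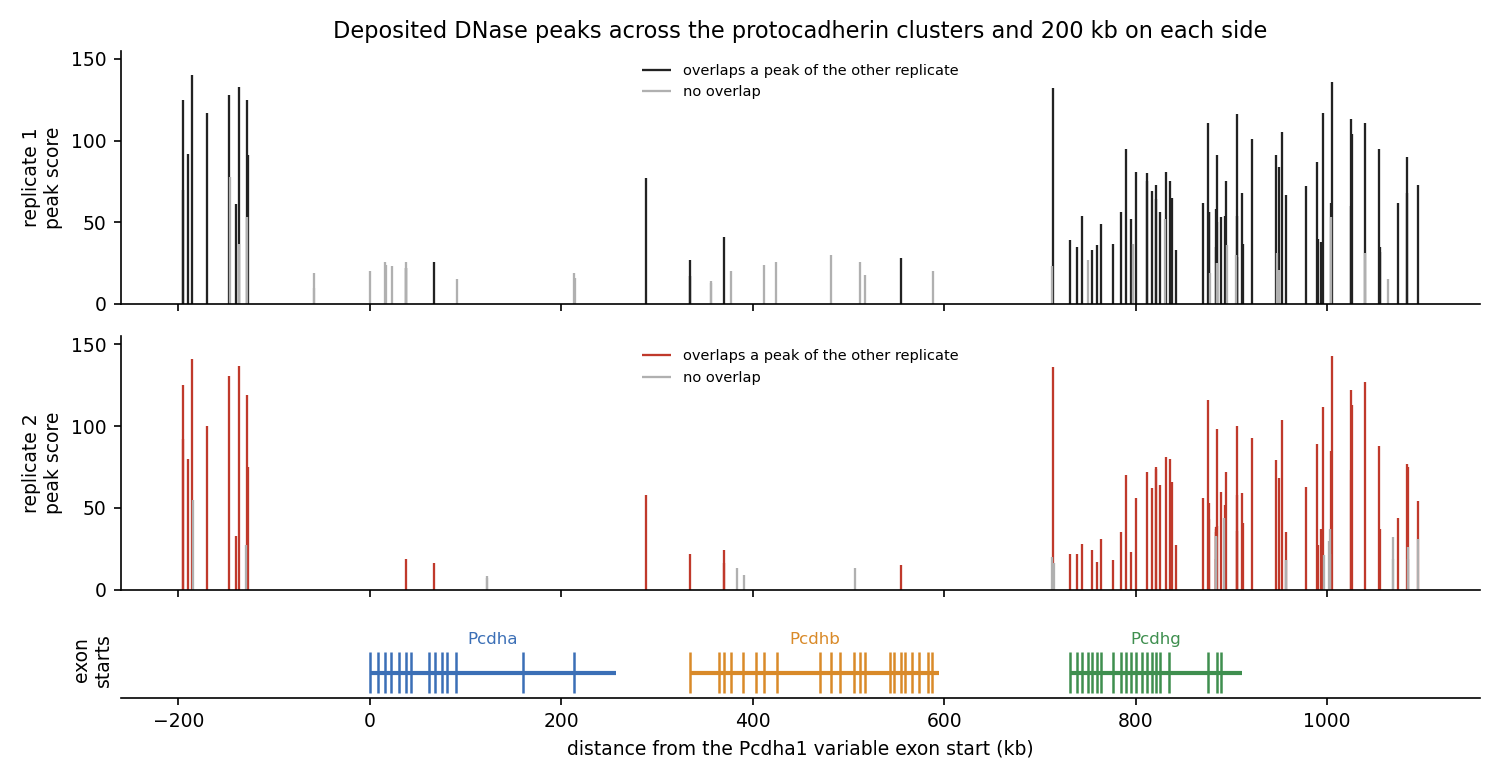
Deposited peaks across the 3 clusters and 200 kb on each side, by distance from the Pcdha1 variable exon start (kb), with peak score as the height of each line, replicate 1 above replicate 2, in black (replicate 1) or red (replicate 2) where a peak overlaps one of the other replicate and in grey where it does not. Variable exon starts are marked at the bottom; over Pcdha and Pcdhb shared peaks are few and scores low, with a lone peak of 77 and 58 between them, and Pcdhg and the stretch after it are dense.

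Between Pcdha and Pcdhb lay 1 peak, which was the same in both replicates. It stood at chr18:37218276-37218425 (mm10), in sequence with no Pcdh exon, 30.6 kb past the last Pcdha exon, with a score of 77 in replicate 1 and 58 in replicate 2. Both values exceeded those of every Pcdha and Pcdhb promoter peak in the same replicate. An enhancer of Pcdha has been described downstream of its constant exons, and whether this peak is that element was not tested. It held no match to the CTCF consensus in either form.

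Inside Pcdhg, 11 shared peaks of replicate 1 lay over 1000 bp from any of the 21 starts. Among them was the peak at chr18:37761576-37761725 (81 in each replicate), just upstream of the start of the pseudogene Pcdhgb8, which is not among the 21. The strongest of the 11 lay in the intron before the last constant exon, at chr18:37835716-37835865 in replicate 1, with scores of 116 in replicate 1 and 100 in replicate 2. A peak over the first constant exon scored 75 in replicate 1 and 72 in replicate 2, and one in the last constant exon 68 and 59. Another lay 2710 bp past the Pcdhga12 start, inside its variable exon (65 in replicate 1 and 66 in replicate 2). One lay at -5440 bp from the Pcdhgc3 start (62 in replicate 1 and 56 in replicate 2). The constant exons of Pcdha, by contrast, held no peak in either replicate.

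After Pcdhg the next gene is Diaph1, which encodes a formin that nucleates actin filaments and lies on the opposite strand with its 3′ end towards Pcdhg. The body of Diaph1, at chr18:37843601-37935476 and away from its own promoter, held 10 peaks of replicate 1 that overlapped replicate 2, with scores of 38 to 117 (median 85.5) in replicate 1. The overlapping peaks of replicate 2 scored 27 to 112 (median 73.5). The overlapping peak nearest to the Diaph1 start, at chr18:37925956-37926105, scored 117 in replicate 1 and 112 in replicate 2, and the one nearest to Pcdhg, 10.4 kb past it, 101 and 93. Peaks 41.8 kb and 45.3 kb past the end of Pcdhg held a CTCF consensus on the reverse strand, opposite to the matches in Pcdha exons. The first of these scored 105 in replicate 1 and 104 in replicate 2, the second 67 and 35. A shared peak 142.6 kb past Pcdhg held it on the forward strand (95 in replicate 1 and 88 in replicate 2). So did a shared peak in the 200 kb before Pcdha (61 and 33). Of the 41 shared peaks in the 3 clusters, 1 (2.44%), that of the Pcdha6 exon, held the consensus, against 6.35% of all shared peaks. Enhancers acting on the clusters have been described downstream of Pcdhg, and whether any of these peaks is one of them was not tested.

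Genes around and between the arrays were mostly open. In the 200 kb before Pcdha, 7 of 8 coding genes had a shared promoter peak, against 58.5% of all coding genes. Most of these 7 had CpG counts in the third quartile (44 to 71), where 87.7% of coding genes had a shared peak. Scores before Pcdha were 125 in both replicates at Tmco6, 140 in replicate 1 and 141 in replicate 2 at the shared promoter of Ndufa2 and Ik, and 117 and 100 at Wdr55. The shared promoter of Hars2 and Hars, histidyl-tRNA synthetase genes, scored 128 in replicate 1 and 131 in replicate 2, and Zmat2 133 and 137. Taf7, a subunit gene of the general transcription factor TFIID, lies between Pcdhb and Pcdhg and scored 132 in replicate 1 and 136 in replicate 2, while Slc25a2 beside it had no peak. After Pcdhg, 4 of 5 were open: Diaph1 (136 in replicate 1, 143 in replicate 2), the shared promoter of the histone deacetylase gene Hdac3 and of Rell2 (113 and 122), and Fchsd1 (111 and 127). Every one of these scores at an open neighbour exceeded the scores of all Pcdha and Pcdhb genes in the same replicate. Of the 3 coding genes that the annotation places inside Pcdha and that are not Pcdh genes by symbol, 0 had a shared peak. Their starts lie inside the variable exons of Pcdha4, Pcdha6 and Pcdha7, so they are not independent neighbours.

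Genes for related proteins and for known regulators of the clusters were read in the same way. Of 15 nonclustered protocadherin and Celsr genes, which encode further cadherin-type adhesion proteins, 9 had a shared promoter peak (60%), near the 58.5% of coding genes. Celsr1 scored 123 in replicate 1 and 120 in replicate 2, Pcdh1 89 and 71, and Pcdh17 86 and 92. Pcdh19 was the lowest of the 9, with 37 and 28. Those without were Pcdh9, Pcdh11x, Pcdh12, Pcdh15, Pcdh18 and Pcdh20. All 17 listed regulators had a shared promoter peak. Most of these genes had CpG counts in the highest quartile (72 to 180), where 92.6% of coding genes had a shared peak. With the distance narrowed to 500 bp, 15 of the 17 regulators kept a shared peak, against 55.8% of all coding genes. Among the regulators, Ctcf scored 138 in replicate 1 and 143 in replicate 2, and the cohesin subunit gene Rad21 126 and 131. Smchd1, whose product silences clustered genes including protocadherins, scored 118 in replicate 1 and 128 in replicate 2, the DNA methyltransferase gene Dnmt3b 91 and 94, and the neuronal-gene repressor Rest 85 and 106.

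Marker lists gave the following picture of the tissue. All 6 thymocyte genes (Cd3e, Cd4, Cd8a, Lck, Rag1 and Ptcra) had a shared promoter peak, with scores of 83 to 131 in replicate 1 and 84 to 129 in replicate 2. Of 12 neuron genes 5 had one (41.7%, against 58.5% of all coding genes), namely Snap25, Tubb3, Elavl3, Elavl4 and Syn1, while Syt1, Stmn2, Gap43 and Th had no peak in either replicate. Shared peaks were found at 1 of 4 endothelial genes (Kdr), 1 of 5 thymic epithelial genes (Epcam, not Foxn1 or Psmb11) and 3 of 4 mesenchyme genes (Pdgfra, Pdgfrb and Col1a1), lists too short to set against that share. Which cells carried the Pcdhg peaks was not tested.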

How the data were processed

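Newborn thymus was measured by DNase-seq in 2 biological replicates of 1 group. The authors deposited, for each replicate alone and not on pooled reads per the text that accompanies the files, peaks with a score (1 to 150) and hotspots with a −log10 of a q-value (1.30 to 100), on mm10. No source used here names the caller, aligner, thresholds or read totals, so depth is unknown and no interval from counts could be given. Replicate 1 holds 154812 peaks and 135932 hotspots, replicate 2 139702 and 121064, and 67.3% and 74.8% of these peaks overlapped the other list by at least 1 bp. Peaks were used as deposited. A score with a decimal point was found for 6.78% of replicate 1's peaks and 10.1% of replicate 2's, and the result without them is among the alternatives.

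Start sites were the first base of the longest coding transcript in GENCODE M21 (GRCm38), which gives the symbol Pcdha11 to a pair of genes; the first was called Pcdha10 after RefSeq. Genes without a usable start (85) were left out. CpG counts, the CTCF consensus and recurring 31-base words were read from the GRCm38 sequence with Python 3.11.15, pandas 2.3.3 and pysam 0.24.0. Overlap, promoter calls and the consensus search were checked on simulated data with known answers. Named genes were all members with a promoter peak, those with the lowest and highest CpG count of each array, neighbours with a promoter peak, and list genes with or without one, whichever were fewer. Some other list genes were named as examples, outside this rule. The alternation of A and B types, the distance from the coding start and the peaks named outside promoters were looked at after their values were seen. The division of Pcdhg after Pcdhga8 was not planned in advance. The members, lists and rules were chosen with earlier results of these data known. No test was made, since there was 1 group. One marker list is not reported here.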

Additional observations from a re-analysis of the deposited data

How the results depend on the processing

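Keeping the stronger 50% of peaks left 10 of the 57 genes with a shared promoter peak, 0 Pcdha, 0 Pcdhb and 10 Pcdhg, and gave 3.16 shared peaks per 100 kb over the 3 clusters, 0.932 over the gaps and 6.75 over the flanks, in place of 5.88, 1.40 and 8.50. A peak in either replicate gave 37 genes, with 6 Pcdha, 11 Pcdhb and, of 12 neuron genes, 8, against 63.4% of all coding genes. With 1 replicate left out, the count was 2 to 6 for Pcdha and 4 to 10 for Pcdhb, peaks per 100 kb were 7.17 to 9.47 over the clusters, 1.86 to 2.33 over the gaps and 11 to 11.5 over the flanks, and 2 to 4.55% of cluster peaks held the CTCF consensus. A 500 bp window left 1 Pcdha gene and 1 consensus match. The looser consensus gave 26 genes, against 37.3% of all coding genes, and 12.2% of cluster peaks, against 18.2% of all shared peaks. Hotspots gave 9 per 100 kb over the flanks, and a 250 bp window gave a median of 13 CpGs. In the other 80 settings values stayed within 1.5 times or the spread between replicates, including those without decimal-point peaks, chosen after seeing the data. Among these settings, replicate 1 alone gave 36 of the 57 genes (63.2%), against 61.5% of all coding genes. Replicate 2 alone gave 25 (43.9%), against 60.9%. The lower share of the 57 genes as a whole was thus not seen in replicate 1 alone. No paired analysis was possible because there was 1 group. Depth is unknown and limits what an unlisted peak means.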
